A study of Homo sapiens with 8 samples.

Results

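The 35 genes described here encode the transcription factor NRF2 (gene NFE2L2), its partners and inhibitors, and the antioxidant and detoxifying enzymes that it is known to induce or that work beside them. They were taken by gene symbol from tables of 24252 genes. All 35 were found, and for SOD2, which appears under 2 gene IDs, the ID with the higher mean was kept. The cells were HaCaT, a spontaneously immortalised line of human skin keratinocytes, with 4 libraries labelled Control, for which no treatment is named, and 4 labelled OGD-R. OGD-R is the usual abbreviation for oxygen and glucose deprivation followed by reperfusion, although the labels do not spell it out. They name an early stage but no duration. Whether the 4 libraries of a group are separate cultures is not said, so p-values measure only how these libraries varied, which may be technical variation.

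NRF2 is held in the cytoplasm and sent to degradation by KEAP1, a sensor whose cysteines react with oxidants and electrophiles. Freed NRF2 pairs with a small MAF protein such as MAFG and binds antioxidant response elements, which BACH1 occupies as a repressor when heme is scarce. Its targets make and recycle glutathione and thioredoxin, conjugate or reduce reactive compounds, and export the products. In skin this programme helps protect keratinocytes against ultraviolet light and reactive chemicals.

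Antioxidant response elements carry the core letters TGACNNNGC. These letters were searched on both strands in RefSeq promoter windows (GRCh38.p14) that run from 250 bases before to 50 bases after each annotated start. Windows were found for 27 of the 35 genes, and 6 of these 27 (22.2%) held the core in at least 1 window. Over all gene symbols in the same table, 16.1% held it, so its frequency in these windows was close to that of promoters in general. Stretches farther from a start, and genes without a window, were not searched. The 8 cores lying wholly before a start are shown because they are the stretches of these windows that carry the letters NRF2 is known to bind. Each is written 5′ to 3′ on the strand of its gene with the 9 core letters in capitals, reverse complemented where the core lies on the other strand.
GCLM chr1:93909446-93909474, minus strand: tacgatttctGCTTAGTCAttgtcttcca
ME1 chr6:83431170-83431198, minus strand: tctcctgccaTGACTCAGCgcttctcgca
GSTP1 chr11:67583736-67583764, plus strand: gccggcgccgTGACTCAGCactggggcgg
TXNRD1 chr12:104215670-104215698, plus strand: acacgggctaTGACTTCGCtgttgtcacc
TXNRD1 chr12:104286920-104286948, plus strand: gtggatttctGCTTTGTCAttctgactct
GPX2 chr14:64942849-64942877, minus strand: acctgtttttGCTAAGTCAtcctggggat
KEAP1 chr19:10502807-10502835, minus strand: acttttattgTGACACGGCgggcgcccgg
KEAP1 chr19:10502784-10502812, minus strand: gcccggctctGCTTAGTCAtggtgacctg

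In ME1 and GSTP1 the core overlapped an AP-1 site (TGANTCA), the sequence bound by FOS and JUN proteins. A match is a run of letters and no measure of binding.

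Values are read as FPKM, fragments scaled for transcript length and library depth, so levels can be compared between genes. The summed FPKM of a library lay between 428984 and 475385. Mitochondrially encoded genes took 17.5% to 21.9% of it in Control and 26.6% to 29.1% in OGD-R. Across tested genes the OGD-R libraries correlated at 0.992 to 0.993 with each other, while Controls 1 and 2 correlated at only 0.874 to 0.881 with Controls 3 and 4. Within the pairs, Control 1 correlated at 0.992 with Control 2 and Control 3 at 0.991 with Control 4. With the OGD-R libraries, Controls 1 and 2 correlated at 0.940 to 0.947 and Controls 3 and 4 at 0.879 to 0.887. Controls 1 and 2 were thus closer to OGD-R than to the other Controls. Counts over the list, and the log2 fold change of each called gene that is named, are therefore also given with either pair of Controls left out. Keratinocyte identity was clear in every library: the 10 keratinocyte markers, KRT5 and KRT14 among them, summed to 13051 to 21613 FPKM in Control and 16018 to 16983 FPKM in OGD-R. The markers did not move together. KRT17 was at 2346, 2089, 9933 and 9796 in Controls 1 to 4 and at 2084 to 2435 FPKM in OGD-R. In the test described below, 2 of the 10 were called higher (KRT5 and KRT14) and 2 lower (KRT6A and SFN), beside 10.2% and 9.69% of all tested genes. Among 18 markers of other cell types, COL1A1 and CD68, a lysosomal protein gene of many cells, were the 2 with a mean of at least 1 FPKM, and COL1A2 of fibroblasts and TYR of melanocytes were listed at 0 in all libraries. The other 14 were at 0.629 FPKM or less. Among these DCN, LUM, PMEL and VWF had every OGD-R library above every Control, with highest values of 0.540, 0.225, 0.629 and 0.455 FPKM. The 4 melanocyte markers summed to 0.135 to 0.427 FPKM in Control and 0.543 to 0.666 FPKM in OGD-R, and the 3 endothelial markers to 0.0474 to 0.146 FPKM and 0.296 to 0.463 FPKM. The 4 leukocyte markers summed to 12.3 to 16.7 FPKM in Control and 3.06 to 3.80 FPKM in OGD-R, nearly all of it CD68, and the 7 fibroblast markers to 0.882, 1.13, 8.72 and 8.07 FPKM in Controls 1 to 4 and 3.82 to 4.99 FPKM in OGD-R. The part of these markers, and of the mitochondrial share, in the results below was not tested. The sum of 8 cell cycle markers, MKI67 and CDK1 among them, was 544, 589, 56.5 and 49.3 in Controls 1 to 4 and 491 to 555 FPKM in OGD-R.

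Within the NRF2 and antioxidant genes, OGD-R cells had less RNA for the heme-degrading enzyme HMOX1, the stress-induced growth regulator OSGIN1, sulfiredoxin (SRXN1), MAFG and AKR1C1. They had more RNA for the aldo-keto reductase AKR1B10, catalase (CAT), the peroxiredoxin PRDX5 and the glutathione-making enzyme GCLC. The other 24 tested genes did not pass the test, and for many of them the OGD-R level lay between that of Controls 1 and 2 and that of Controls 3 and 4. Of the 35 genes 33 had a mean of at least 1 FPKM and were tested. With limma on log2(FPKM + 1) at a Benjamini-Hochberg adjusted p of 0.05, 4 of the 33 (12.1%) were higher and 5 (15.2%) lower in OGD-R. Of all 11740 genes tested, 10.2% were called higher and 9.69% lower, so these shares were near those of the transcriptome. The median log2 fold change was -0.099 over the 33 genes and 0.018 over all genes. When values were scaled without mitochondrial genes, the calls over all genes shifted from 1202 higher and 1138 lower (51.4% higher) to 1600 and 871 (64.8% higher).

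**Figure D1:**
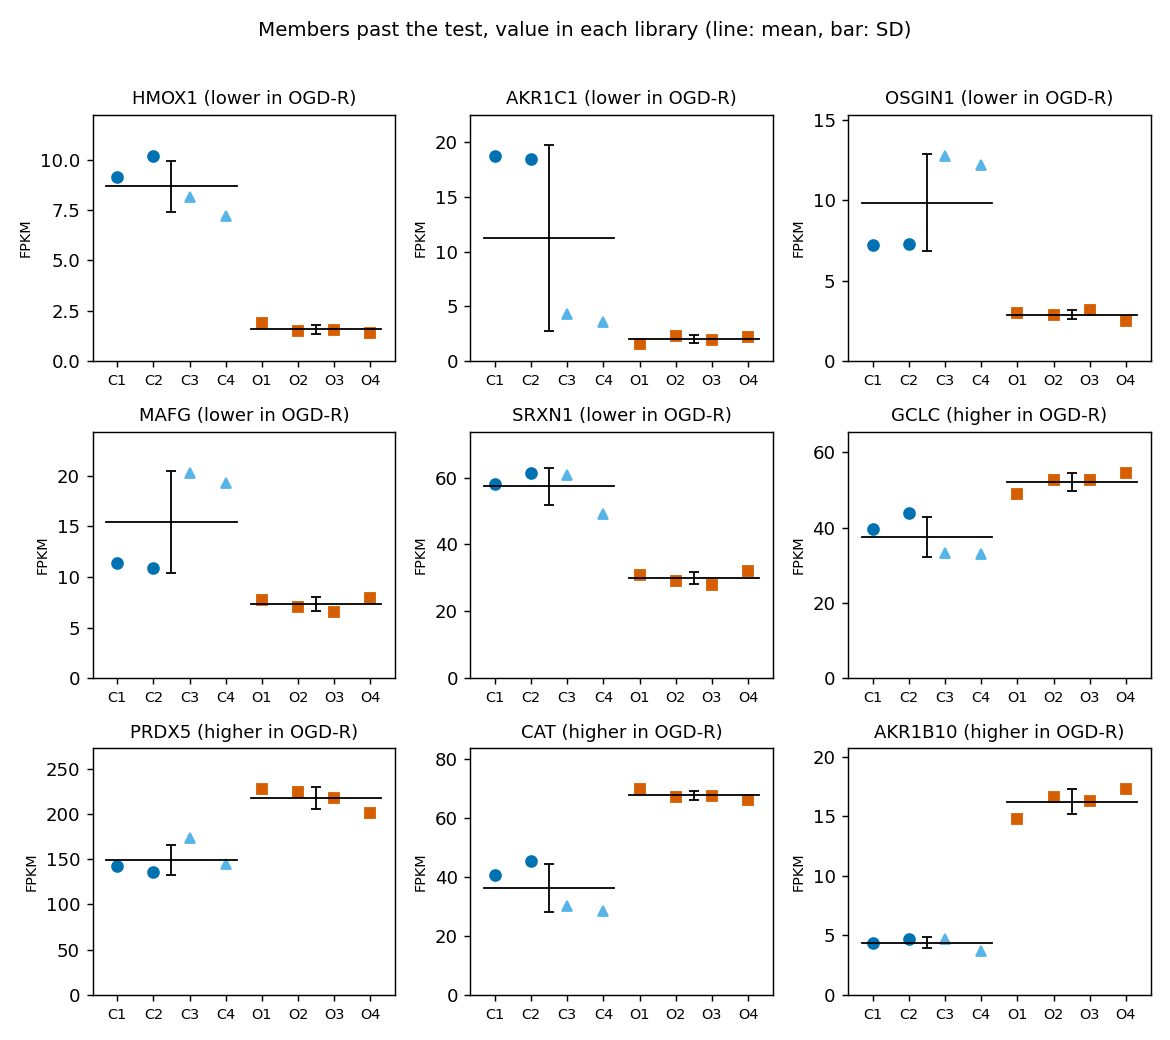
FPKM of the 9 genes past the test in each library (C1 to C4, Controls, with circles for 1 and 2 and triangles for 3 and 4; O1 to O4, OGD-R, squares). Horizontal lines are group means and bars are SDs over 4 libraries; in all 9 panels no OGD-R library overlaps any Control library, and in AKR1C1 Controls 3 and 4 lie close to OGD-R.

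HMOX1 breaks down heme into iron, carbon monoxide and biliverdin and is among the most inducible stress genes known. It lies on chromosome 22, 35380361 to 35394214, plus strand (GENCODE 29, GRCh38). It was at 9.13, 10.2, 8.14 and 7.22 in Controls 1 to 4 and at 1.88, 1.49, 1.56 and 1.39 FPKM in OGD-R 1 to 4. Controls 1 and 2 were 1.26-fold above Controls 3 and 4 in mean, and every OGD-R library was far below both pairs. The log2 fold change, taken on log2(FPKM + 1), was -1.90 ± 0.12 (SE; limma's adjusted p = 6.83e-05). Without the added 1, the mean FPKM was 5.48-fold lower. HMOX1 stood at -2.05 against Controls 1 and 2 alone and at -1.75 against Controls 3 and 4 alone.

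OSGIN1, a growth inhibitor induced by oxidative stress (chromosome 16, 83948282 to 83966332, plus strand), was at 7.21, 7.28, 12.8 and 12.2 FPKM in the 4 Controls. In OGD-R 1 to 4 it was at 3.02, 2.86, 3.19 and 2.51 FPKM. Controls 3 and 4 were the highest libraries, and OGD-R lay below both pairs. The log2 fold change was -1.44 ± 0.19 (SE; limma's adjusted p = 0.00189). Against Controls 1 and 2 alone OSGIN1 fell by 1.08 on the log2 scale, and against Controls 3 and 4 alone by 1.79.

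ME1, the cytosolic malic enzyme, which makes NADPH, was at 25.3, 28.0, 17.6 and 16.4 in Controls 1 to 4 and at 13.2, 15.2, 14.6 and 15.1 FPKM in OGD-R. All OGD-R libraries were below all Controls, but the gene did not pass the test (log2 fold change -0.52 ± 0.17, SE; limma's adjusted p = 0.0692). NQO1, a quinone reductase often used as a readout of NRF2, differed widely between the Controls. It was at 331, 334, 69.4 and 75.4 in Controls 1 to 4 and at 94.8, 99.7, 100.1 and 104 FPKM in OGD-R. The OGD-R libraries were thus far below Controls 1 and 2 and somewhat above Controls 3 and 4. With all libraries its log2 fold change was -0.64 ± 0.55 (SE; limma's adjusted p = 0.446). It was -1.73 (limma's adjusted p = 6.32e-08) without Controls 3 and 4 and 0.46 (limma's adjusted p = 0.00024) without Controls 1 and 2.

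Among the regulators, MAFG fell and the RNA of NRF2 itself did not pass the test. MAFG, the small partner protein of NRF2 and BACH1, was at 11.4, 10.9, 20.3 and 19.2 in Controls 1 to 4 and at 7.74, 6.99, 6.53 and 7.97 FPKM in OGD-R. OGD-R lay below both pairs of Controls, with a log2 fold change of -0.94 ± 0.21 (SE; limma's adjusted p = 0.0177). The size depended on the pair, at -0.55 against Controls 1 and 2 alone and -1.33 against Controls 3 and 4 alone. The call was lost without OGD-R 2 (limma's adjusted p = 0.056) and without OGD-R 3 (limma's adjusted p = 0.0603). BACH1, the repressor that competes for the same sites, was at 4.51, 4.41, 9.62 and 8.32 in Controls and 3.50, 4.04, 3.59 and 3.84 FPKM in OGD-R. Its groups did not overlap either, but it did not pass the test (log2 fold change -0.64 ± 0.23, SE; limma's adjusted p = 0.0874).

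NFE2L2 was at 44.5, 49.0, 95.7 and 98.7 in Controls 1 to 4 and at 49.9, 57.9, 49.5 and 57.6 FPKM in OGD-R. Its OGD-R libraries were level with or slightly above Controls 1 and 2 and well below Controls 3 and 4 (log2 fold change -0.32 ± 0.27, SE; limma's adjusted p = 0.438). Without Controls 1 and 2 the log2 fold change was -0.85 (limma's adjusted p = 1.77e-05). KEAP1 ran the other way among the Controls, at 22.2, 20.7, 15.9 and 14.2 FPKM, with OGD-R at 20.4, 20.3, 19.4 and 18.3 FPKM (limma's adjusted p = 0.606). NRF2 is controlled mainly through its protein, which these data do not measure.

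Glutathione is made in 2 steps, the first by glutamate-cysteine ligase, a pair of the catalytic subunit GCLC and the modifier subunit GCLM, and the second by GSS. GCLC was at 39.6, 43.9, 33.3 and 33.0 in Controls 1 to 4 and at 48.9, 52.7, 52.7 and 54.6 FPKM in OGD-R. The OGD-R libraries were all higher, with a log2 fold change of 0.48 ± 0.11 (SE; limma's adjusted p = 0.0203). Against Controls 1 and 2 alone the log2 fold change of GCLC was 0.32, and against Controls 3 and 4 alone 0.64. The call was lost without OGD-R 2, without OGD-R 3 and without OGD-R 4 (limma's adjusted p = 0.0648, 0.0653 and 0.0677).

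GCLM had the opposite direction of difference. It was at 30.9, 36.6, 16.8 and 14.7 in Controls 1 to 4 and at 11.997, 11.7, 10.4 and 12.9 FPKM in OGD-R, with no overlap between the groups. It just missed the threshold (log2 fold change -0.92 ± 0.28, SE; limma's adjusted p = 0.0512). Under 6 of 17 alternative settings GCLM was called lower, and under the other 11 it was not called. The 6 included scaling without mitochondrial genes (limma's adjusted p = 0.0479) and leaving out Control 3 or Control 4 (limma's adjusted p = 0.0452 and 0.0211). The ratio of GCLC to GCLM, looked at after these values were seen, was 1.28, 1.2, 1.98 and 2.25 in Controls 1 to 4 and 4.07, 4.51, 5.07 and 4.24 in OGD-R. Both FPKM values of a ratio come from the same library, so a common scaling of the library does not change it.

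GSS was at 29.3 to 46.7 FPKM in Control and 31.7 to 39.8 FPKM in OGD-R. GSR, which reduces oxidised glutathione, was at 28.7, 29.3, 13.2 and 13.1 in Controls 1 to 4 and at 28.3 to 31.1 FPKM in OGD-R. GSR in OGD-R was thus like Controls 1 and 2 and above Controls 3 and 4. Neither was called (limma's adjusted p = 0.804 and 0.206).

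Thioredoxin (TXN) reduces protein disulfides, thioredoxin reductase (TXNRD1) recharges it with NADPH, and sulfiredoxin (SRXN1) repairs over-oxidised peroxiredoxins. SRXN1 was the member of this group that changed. It was at 58.0, 61.5, 60.7 and 49.2 in Controls 1 to 4 and at 30.8, 29.03, 27.9 and 32.1 FPKM in OGD-R, a 1.92-fold lower mean. The Control pairs overlapped, so this difference did not follow their split (log2 fold change -0.91 ± 0.10, SE; limma's adjusted p = 0.000782). For SRXN1 the values with 1 pair left out were close, at -0.97 against Controls 1 and 2 and -0.85 against Controls 3 and 4. Its annotated exons overlap those of AL121758.1 on the same strand, and 84.6% of the 75-base windows of its transcript also occur in that gene. AL121758.1 was listed at 0 to 0.0498 FPKM in the 8 libraries. No source used here says how reads were divided between these genes, so the split is uncertain.

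TXN was at 760.0, 654, 234 and 211 in Controls 1 to 4 and at 304, 394, 347 and 351 FPKM in OGD-R, between the pairs of Controls. TXNRD1 was at 85.5, 95.4, 70.8 and 60.4 in Controls and 58.2 to 66.0 FPKM in OGD-R, which overlapped. Neither was called (limma's adjusted p = 0.788 and 0.173).

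Peroxiredoxins reduce hydrogen peroxide through a reactive cysteine. PRDX5, found in mitochondria, peroxisomes and cytosol (chromosome 11, 64318088 to 64321811, plus strand), was the only 1 of the 6 that passed the test with all libraries. It was at 143, 136, 174 and 144 in Controls 1 to 4 and at 227, 225, 218 and 201 FPKM in OGD-R. All OGD-R libraries were high, with a log2 fold change of 0.55 ± 0.10 (SE; limma's adjusted p = 0.00763). The PRDX5 value was 0.64 against Controls 1 and 2 alone and 0.45 against Controls 3 and 4 alone.

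The other 5 had their OGD-R libraries between the Control pairs. PRDX1, the most abundant, was at 703, 680.0, 322 and 259 in Controls 1 to 4 and at 485, 505, 469.7 and 491 FPKM in OGD-R. The mitochondrial PRDX3 was at 83.0, 89.3, 32.3 and 22.6 in Controls and 59.8, 61.1, 54.6 and 63.3 FPKM in OGD-R. Controls 1 and 2 were highest and Controls 3 and 4 lowest in each of these genes. PRDX2, of the cytosol, was at 193, 170.4, 73.1 and 70.1 in Controls and 149, 149, 154 and 149 FPKM in OGD-R. PRDX4, of the endoplasmic reticulum, was at 101, 87.1, 53.9 and 41.2 in Controls and 67.8, 68.8, 63.2 and 63.6 FPKM in OGD-R. PRDX6, which also acts on phospholipids, was at 204, 201, 89.5 and 77.9 in Controls and 150.5, 151, 152 and 158 FPKM in OGD-R. All 5 were called lower without Controls 3 and 4 (log2 fold change -0.27 to -0.52) and higher without Controls 1 and 2 (0.47 to 1.11). The summed level of the 6 peroxiredoxins was 1426, 1365, 745 and 615 in Controls 1 to 4 and 1111 to 1160 FPKM in OGD-R.

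Catalase, the peroxisomal enzyme that splits hydrogen peroxide, rose. CAT (chromosome 11, 34438925 to 34472062, plus strand) was at 40.5, 45.2, 30.0 and 28.5 in Controls 1 to 4 and at 69.6, 67.0, 67.5 and 66.1 FPKM in OGD-R. OGD-R lay above both Control pairs, with a log2 fold change of 0.91 ± 0.15 (SE; limma's adjusted p = 0.00511). For CAT it was 0.65 against Controls 1 and 2 alone and 1.18 against Controls 3 and 4 alone.

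The superoxide dismutases did not pass the test. SOD1, of the cytosol, was at 80.3, 74.9, 35.9 and 41.1 in Controls 1 to 4 and at 55.3, 62.0, 60.7 and 57.7 FPKM in OGD-R, between the pairs. The mitochondrial SOD2 was at 10.97 to 16.9 FPKM in Control and 11.5 to 14.9 FPKM in OGD-R. Its second ID was listed at 0.0247 FPKM or less in every library.

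Glutathione peroxidases reduce peroxides with glutathione. GPX1, the widespread form, was at 174, 145, 84.3 and 82.8 in Controls 1 to 4 and at 70.3, 71.1, 70.4 and 74.0 FPKM in OGD-R. No library overlapped, but the Control spread was wide and the test was not passed (log2 fold change -0.68 ± 0.24, SE; limma's adjusted p = 0.0844). GPX2, an epithelial form, was at 196, 213, 119.9 and 127 in Controls 1 to 4 and at 176 to 195 FPKM in OGD-R.

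GSTP1, the glutathione transferase that conjugates electrophiles, was the most abundant gene of the list, at 940.2 to 1144 FPKM in Control and 1014 to 1110.5 FPKM in OGD-R, and its groups overlapped. It also differed little between the Control pairs. GPX3, the plasma form, and ABCC2, an export pump, were too low to be tested, at 0.105 to 0.621 FPKM and 0.250 to 0.758 FPKM over the 8 libraries. ABCC1, the pump that exports glutathione conjugates, was at 14.9 to 22.7 FPKM in Control and 14.5 to 16.9 FPKM in OGD-R (limma's adjusted p = 0.375).

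Aldo-keto reductases reduce aldehydes, ketones and steroids with NADPH. AKR1B10, which also reduces retinal (chromosome 7, 134527592 to 134541408, plus strand), had the smallest p of the list. It was at 4.38, 4.71, 4.69 and 3.71 in Controls 1 to 4 and at 14.8, 16.6, 16.2 and 17.3 FPKM in OGD-R. The 4 Controls were alike and every OGD-R library was high, with a mean FPKM 3.71-fold higher. On log2(FPKM + 1) the log2 fold change was 1.68 ± 0.10 (SE; limma's adjusted p = 4.90e-05). For AKR1B10 the log2 fold change was 1.63 against Controls 1 and 2 alone and 1.73 against Controls 3 and 4 alone. Of its transcript, 4.75% of 75-base windows also occur in the neighbouring copy AKR1B15, which was listed at 0.402 FPKM or less.

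AKR1B1, the aldose reductase of the polyol pathway and a relative of AKR1B10 with 75.8% identical coding bases, did not share this pattern. It was at 118, 115, 31.4 and 25.6 in Controls 1 to 4 and at 76.4, 72.1, 68.6 and 68.5 FPKM in OGD-R, between the pairs. The ratio of AKR1B10 to AKR1B1 was 0.0370, 0.0411, 0.150 and 0.145 in Controls and 0.193 to 0.252 in OGD-R. OGD-R was therefore above both pairs in this ratio, which was chosen after the values were seen.

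AKR1C1, AKR1C2 and AKR1C3 are neighbouring genes on chromosome 10 that reduce steroids and prostaglandins. They are near-identical copies, and no source used here says how reads were divided among them. Of their 972 coding bases, AKR1C1 and AKR1C2 share 98.0% and AKR1C1 and AKR1C3 share 91.5%. The first 120 coding bases of each (GENCODE 29, GRCh38) show where the copies differ in this stretch. Capitals mark bases that differ from AKR1C1 at the same position.
AKR1C1: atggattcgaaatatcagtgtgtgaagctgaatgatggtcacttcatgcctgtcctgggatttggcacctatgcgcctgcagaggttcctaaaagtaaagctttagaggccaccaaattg
AKR1C2: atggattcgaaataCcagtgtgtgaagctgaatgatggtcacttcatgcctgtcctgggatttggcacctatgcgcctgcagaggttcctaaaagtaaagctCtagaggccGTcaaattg
AKR1C3: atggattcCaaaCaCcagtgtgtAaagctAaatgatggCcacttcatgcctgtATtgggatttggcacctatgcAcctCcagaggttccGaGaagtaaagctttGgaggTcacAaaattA

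In this stretch AKR1C2 differs from AKR1C1 at 4 positions and AKR1C3 at 16, and over all 972 coding bases at 19 and 83. Of the 75-base windows of the AKR1C3 transcript, 7.91% occur in any other gene. Of the 75-base windows of the AKR1C2 transcript, 39.5% occur in AKR1C1 as well, so the split between these 2 genes is uncertain. AKR1C1 was at 18.7, 18.45, 4.28 and 3.58 in Controls 1 to 4 and at 1.56, 2.31, 1.98 and 2.26 FPKM in OGD-R. Controls 3 and 4 were much closer to OGD-R than Controls 1 and 2 were. AKR1C1 had a log2 fold change of -2.70 against Controls 1 and 2 alone and -0.71 against Controls 3 and 4 alone. Its call as lower with all libraries (log2 fold change -1.70 ± 0.50, SE; limma's adjusted p = 0.0479) was lost without Control 1 (limma's adjusted p = 0.0782), without Control 2 (limma's adjusted p = 0.079) and without any single OGD-R library (limma's adjusted p = 0.103 to 0.12).

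AKR1C2 was at 117, 127, 39.7 and 30.4 in Controls 1 to 4 and at 25.6 to 34.3 FPKM in OGD-R. AKR1C3, which also makes prostaglandin F, was at 51.4, 65.5, 14.8 and 12.1 in Controls and 11.8 to 14.7 FPKM in OGD-R. Both were level with Controls 3 and 4 and below Controls 1 and 2 (limma's adjusted p = 0.147 and 0.184 with all libraries). The sum of the 3 copies was 188, 211, 58.8 and 46.1 in Controls 1 to 4 and 39.1 to 51.4 FPKM in OGD-R. The transcripts compared here are 6705 (AKR1C1), 3756 (AKR1C2) and 1807 bases (AKR1C3) long, and FPKM is scaled for length. How far the sum depends on the split of reads among the copies was not tested. In the sum, OGD-R overlapped Control 4.

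**Figure D2:**
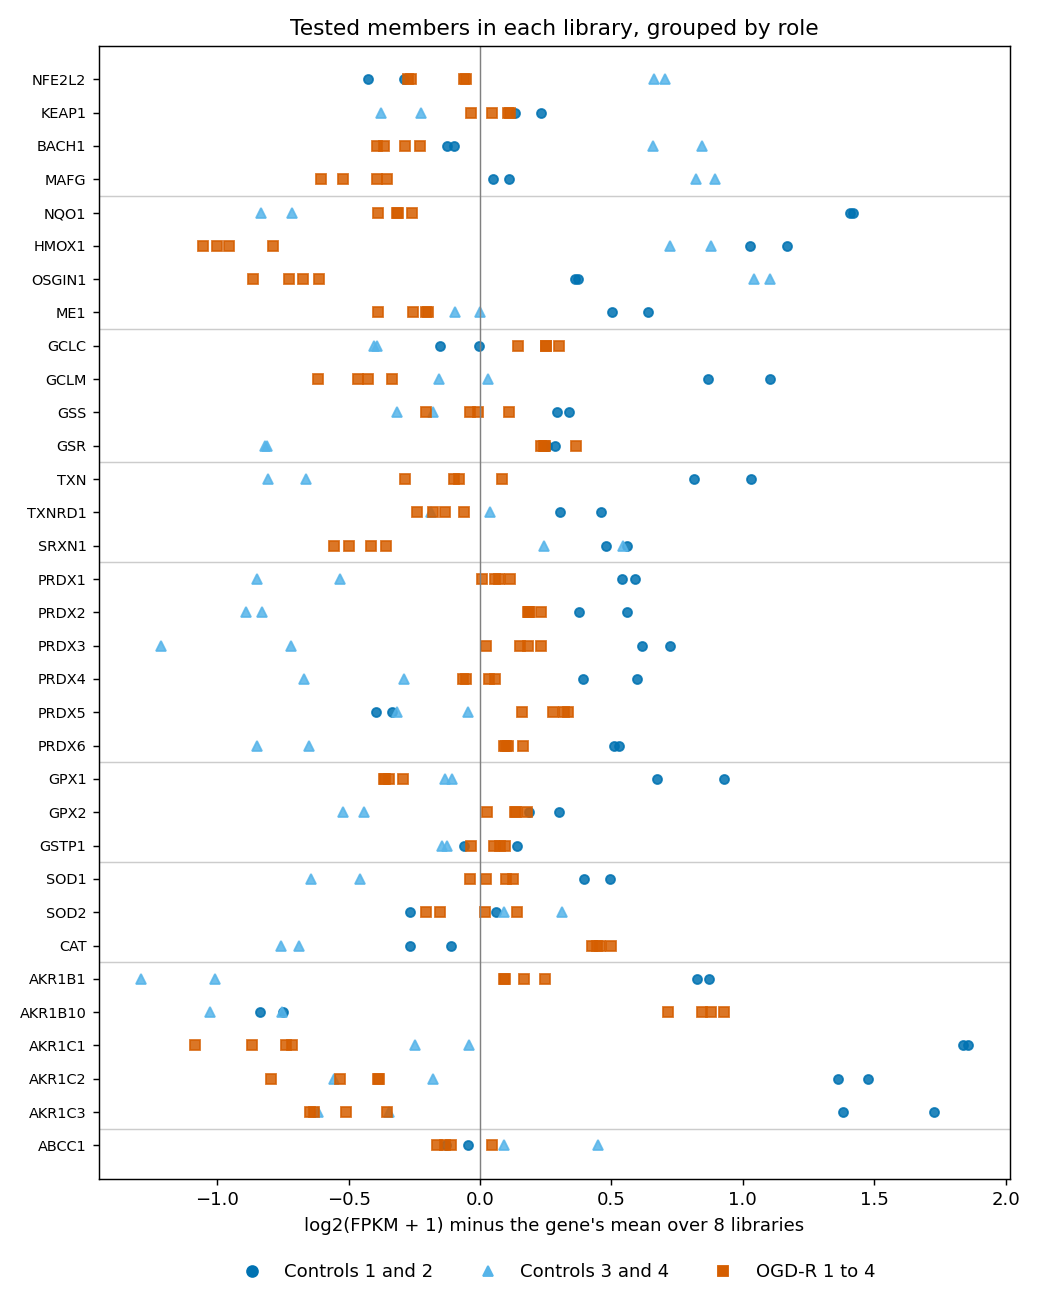
Each row is one of the 33 tested genes, grouped by role, and each point a library, placed by its log2(FPKM + 1) minus the gene's mean over the 8 libraries (circles, Controls 1 and 2; triangles, Controls 3 and 4; squares, OGD-R). Squares lie outside all Controls for 13 genes, AKR1B10 and HMOX1 among them, and between circles and triangles for 12, among them NQO1, TXN and 5 of the 6 peroxiredoxins.

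Counted over the list, the OGD-R values were all higher than all Control values for 4 of the 33 tested genes (12.1%) and all lower for 9 (27.3%). Of all tested genes 15.2% lay wholly above and 14.8% wholly below. Each of these 13 genes reached 0.0286, the smallest p that an exact two-sided permutation test of 4 against 4 libraries can give, so that test does not rank them. For 12 genes (36.4%) all OGD-R libraries lay between Controls 1 and 2 and Controls 3 and 4, against 20.4% of all tested genes. Controls 1 and 2 were the higher pair for 11 of the 12, an arrangement that 13.6% of all tested genes had, and NFE2L2 was the exception.

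The Controls themselves were unequal for most of the list. Both Controls 1 and 2 were above both Controls 3 and 4 for 24 of the 33 genes (72.7%), against 48.1% of all tested genes. Mean levels in Controls 1 and 2 were 4.73-fold those in Controls 3 and 4 for AKR1C1, 4.60-fold for NQO1, 4.34-fold for AKR1C3 and 4.09-fold for AKR1B1. For 7 genes (21.2%, against 34.1% of all tested) Controls 3 and 4 were the higher pair, among them NFE2L2, BACH1, MAFG and OSGIN1. The cell cycle markers given above move with the same pairs of Controls, and their part in these differences was not tested.

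**Figure D3:**
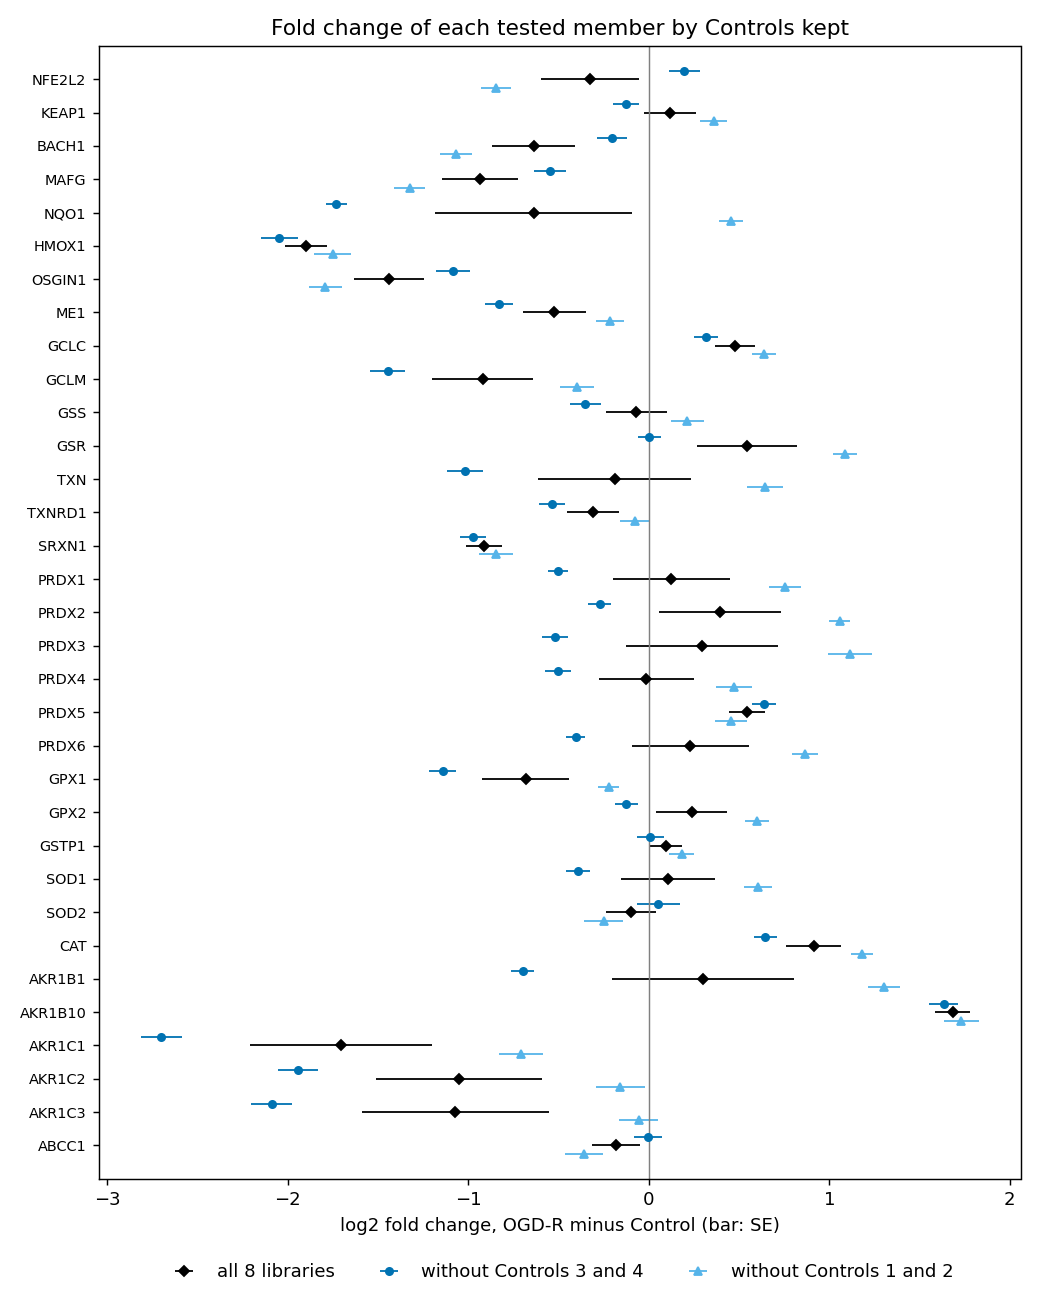
Log2 fold change of OGD-R against Control for the 33 tested genes, with all 8 libraries (diamonds), without Controls 3 and 4 (circles) and without Controls 1 and 2 (triangles); bars are SEs. HMOX1, SRXN1, PRDX5 and AKR1B10 have nearly the same value in all 3, while NQO1, TXN, AKR1B1 and PRDX1 to PRDX4 lie on opposite sides of 0 once a pair of Controls is left out.

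With a pair of Controls left out, the spread within groups is small and many more genes are called, in the list and elsewhere. Without Controls 3 and 4, 4 of the 33 genes (12.1%) were higher and 21 (63.6%) lower in OGD-R, against 22.8% and 32.4% of all tested genes. Without Controls 1 and 2, 17 (51.5%) were higher and 11 (33.3%) lower, against 39.2% and 28.4%. The median log2 fold change of the list was -0.50 in the first fit and 0.21 in the second, and -0.055 and 0.093 over all genes. The same OGD-R libraries enter both fits, whose p-values rest on the spread within 1 pair of Controls and within OGD-R.

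In both fits 12 genes were called in the same direction. GCLC, PRDX5, CAT and AKR1B10 were called higher in both (12.1%, as for 12.1% of all tested genes). MAFG, HMOX1, OSGIN1, ME1, GCLM, SRXN1, GPX1 and AKR1C1 were called lower in both (24.2%, against 11.9%). For 9 genes (27.3%, against 10.5%) the calls were opposite, lower than Controls 1 and 2 and higher than Controls 3 and 4: NQO1, TXN, PRDX1, PRDX2, PRDX3, PRDX4, PRDX6, SOD1 and AKR1B1. None had the reverse pattern, which 4.68% of all tested genes had. The remaining 12 genes were not called in at least 1 of the fits.

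**Figure D4:**
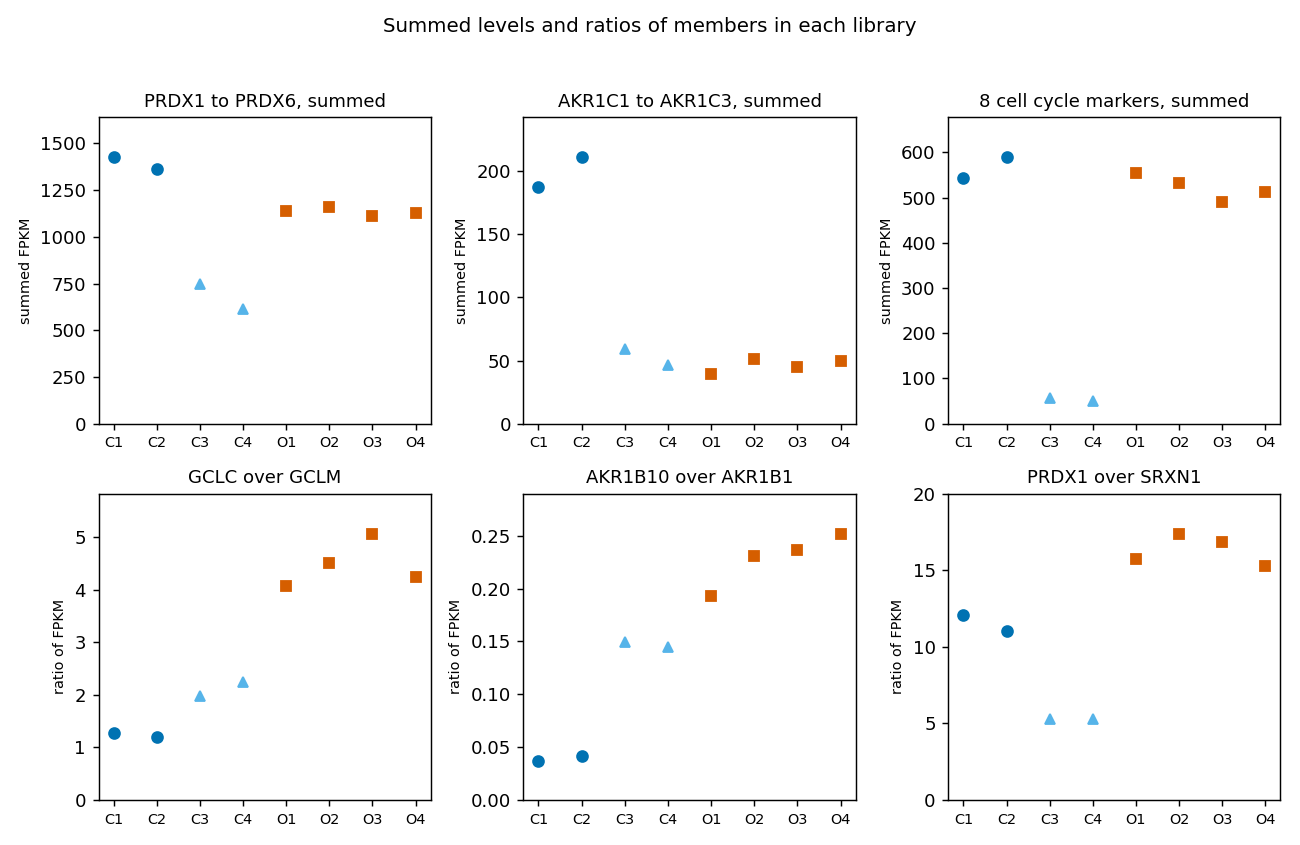
Summed FPKM (top row) and ratios of FPKM (bottom row) in each library (C1 to C4, Controls; O1 to O4, OGD-R). The peroxiredoxin sum in OGD-R lies between the pairs of Controls and the AKR1C sum overlaps Control 4, while the ratio of GCLC to GCLM is 4.07 to 5.07 in OGD-R against 1.2 to 2.25 in Control.

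The ratio of PRDX1 to SRXN1, the enzyme that repairs peroxiredoxins, was 12.1, 11.1, 5.30 and 5.26 in Controls 1 to 4 and 15.3 to 17.4 in OGD-R. OGD-R was above all Controls in this ratio although PRDX1 alone lay between the pairs. This ratio, too, was chosen after the values were seen. Together the 35 genes took 1.03%, 1.005%, 0.655% and 0.605% of the summed FPKM in Controls 1 to 4 and 0.730% to 0.781% in OGD-R, between the pairs.

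Other genes of the NRF2 pathway were read from lists of their own. Of 11 further regulators 10 were tested, and 0 rose and 3 fell, where 10.2% of all tested genes were called higher and 9.69% lower. NFE2L3, a relative of NRF2, fell from 3.73 to 4.10 FPKM in Control to 2.14 to 2.34 FPKM in OGD-R (log2 fold change -0.61 ± 0.08, SE; limma's adjusted p = 0.00144), with -0.57 against Controls 1 and 2 alone and -0.65 against Controls 3 and 4 alone. MAFK, another small MAF protein gene, fell by 0.90 on the log2 scale (limma's adjusted p = 0.0204), and its log2 fold change was -0.53 against Controls 1 and 2 alone and -1.28 against Controls 3 and 4 alone. SQSTM1, the autophagy receptor p62 that draws KEAP1 away from NRF2, was at 116, 112, 399 and 387 in Controls 1 to 4 and at 65.2 to 71.7 FPKM in OGD-R (limma's adjusted p = 0.0379). SQSTM1 was lower in OGD-R than in either pair, with a log2 fold change of -1.61 with all libraries, -0.72 against Controls 1 and 2 alone and -2.50 against Controls 3 and 4 alone.

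Of 28 further NRF2 targets 23 were tested, and 3 were called higher and 5 lower, beside the same 10.2% and 9.69% of all tested genes. By smallest p these were FTH1, IDH1, SLC7A11 and FTL. FTH1 and FTL, the ferritin chains that store iron, fell by 0.59 and 1.88 on the log2 scale (limma's adjusted p = 0.000693 and 0.000949), and both have many pseudogenes, so their values are uncertain. SLC7A11, the cystine importer that feeds glutathione synthesis, was at 9.69 to 16.5 FPKM in Control and 3.77 to 4.85 FPKM in OGD-R (log2 fold change -1.41 ± 0.16, SE; limma's adjusted p = 0.000902). IDH1, an NADPH-making isocitrate dehydrogenase, was at 37.2 to 44.2 FPKM in Control and 68.4 to 72.1 FPKM in OGD-R (log2 fold change 0.75 ± 0.08, SE; limma's adjusted p = 0.000847). Against Controls 1 and 2 alone and Controls 3 and 4 alone, the values were -0.54 and -0.64 for FTH1, -2.28 and -1.47 for FTL, -1.67 and -1.16 for SLC7A11, and 0.67 and 0.83 for IDH1. The median log2 fold change of these 23 genes was 0.092.

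Of 31 further thiol, peroxide and conjugation enzymes 28 were tested, and 7 were called higher and 1 lower, again beside 10.2% and 9.69% of all tested genes. GSTA4, a glutathione transferase for the lipid peroxidation product hydroxynonenal, was at 0.948, 1.05, 1.59 and 1.29 FPKM in the 4 Controls. In OGD-R it was at 4.27, 6.37, 6.08 and 7.24 FPKM, well above all Controls (log2 fold change 1.64 ± 0.16, SE; limma's adjusted p = 0.000453). MGST2, a membrane transferase with a log2 fold change of 0.96, rose from 14.1 to 22.1 FPKM in Control to 33.3 to 40.2 FPKM in OGD-R (limma's adjusted p = 0.00313). GSTZ1 and GSTK1, transferases of tyrosine breakdown and of mitochondria and peroxisomes, had log2 fold changes of 0.58 and 0.40 (limma's adjusted p = 0.00967 and 0.0245). Against Controls 1 and 2 alone and Controls 3 and 4 alone, the values were 1.79 and 1.50 for GSTA4, 0.75 and 1.17 for MGST2, 0.61 and 0.54 for GSTZ1, and 0.27 and 0.53 for GSTK1. The median log2 fold change of the 28 genes was -0.0064, against 0.018 over all genes.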

How the data were processed

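Each library came as its own table of gene values, and libraries were grouped by title. No unit is named in them. The deposited values were taken to be FPKM, because low values of single-exon genes lay near multiples of a constant divided by gene length (22 to 35 of 80 to 110 low values per library within 0.5% of the best step). Such spacing points to scaling by length and cannot by itself tell FPKM from another unit scaled in that way. The step fixes depth only up to a factor of 2, so no counts were derived. Aligner, counting tool and build: not given in the sources used here. Per the labels' protocols, NEBNext and SMARTer kits were both used on total RNA.

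All 24252 rows were joined, and log2(FPKM + 1) was tested with limma 3.58.1 (R 4.3.3, intensity trend, Benjamini-Hochberg adjustment, threshold 0.05) where the mean over libraries reached 1 FPKM, which left 11740 genes. For low genes the added 1 makes fold changes on the log2(FPKM + 1) scale too small. The model was tested on simulated data drawn with the spread of the OGD-R libraries in both groups. That simulation had no split among the Controls, so it does not show how the model behaves with the split seen here. The 35 genes, the further lists, the ratios and the pairs of Controls left out were chosen with earlier results of these data known. Every member is accounted for, with values in each library for called genes, the 4 regulators and genes called in opposite directions by Controls kept; up to 4 called genes of each further list, those with the smallest p, are named. Alternatives covered pseudocount, filters, scalings, the trend, a replicate block and libraries left out; count models, planned only for counts, were not run. All 35 IDs were found in GENCODE 29 with the same symbol. Shared 75-base windows were counted against all GENCODE 29 transcripts on both strands. Of the 35 genes, 13 had such windows, 7 of them over 10% of the transcript (SRXN1, AKR1C2, PRDX1, AKR1C1, PRDX2, NQO1 and GPX1). Figures were drawn with matplotlib 3.10.9.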

Additional observations from a re-analysis of the deposited data

Results flagged for a closer look

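Values of each of the 35 genes were looked at for a single library far from the other 3 of its group, in 70 groups of 4 libraries. Such a gap is expected by chance in about 1 of 20 groups, and 2 were found, both in OGD-R. GSR, the glutathione reductase gene, was at 31.1 FPKM in OGD-R 1 against 28.3 to 28.6 FPKM in the other OGD-R libraries. PRDX2, a cytosolic peroxiredoxin gene, was at 154 FPKM in OGD-R 3 against 148.8 to 148.9 FPKM in the others. Both gaps are small beside the difference between the pairs of Controls for these genes.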

How the results depend on the processing

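Of the 9 called genes, HMOX1, OSGIN1, SRXN1, PRDX5, CAT and AKR1B10 kept their direction and call under all 17 alternatives, while MAFG, GCLC and AKR1C1 lost the call under at least 1. Of the 24 tested genes not called with all libraries, 23 were called under at least 1 alternative, and SOD2 was the exception. Over all genes, 689 were higher with a mean of at least 5 FPKM (fewer genes tested). Without Controls 3 and 4, 2673 were higher and 3807 lower, and without Controls 1 and 2, 4603 and 3337. With 1 library left out, between 711 and 1426 were higher and between 561 and 1312 lower. Members called lower numbered 21 without Controls 3 and 4 and 11 without Controls 1 and 2, members called higher 17 without Controls 1 and 2; with 1 library left out they numbered 3 to 10 and 3 to 4. The cause was not tested.

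Signs changed in genes that had not passed the test with all libraries. Without Controls 3 and 4 the log2 fold change was -0.70 for AKR1B1, -0.13 for GPX2, -0.13 for KEAP1, 0.20 for NFE2L2, -0.50 for PRDX1, -0.27 for PRDX2, -0.52 for PRDX3, -0.41 for PRDX6, -0.39 for SOD1 and 0.053 for SOD2. Without Controls 1 and 2 it was 0.21 for GSS, 0.46 for NQO1, 0.47 for PRDX4 and 0.64 for TXN. Scaled without mitochondrial genes it was 0.0045 for GSS and 0.060 for PRDX4. With 1 library left out it ranged from -0.079 to 0.64 for AKR1B1, -0.19 to 0.033 for GSS, -0.14 to 0.34 for PRDX1, -0.059 to 0.59 for PRDX3, -0.24 to 0.18 for PRDX4, -0.015 to 0.44 for PRDX6, -0.092 to 0.29 for SOD1 and -0.49 to 0.12 for TXN.

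For libraries of the same number, the deviations from their group means correlated at 0.045 to 0.0646. The deviations of the Controls hold the split between their pairs, which OGD-R lacks. These correlations therefore cannot show whether libraries of the same number were paired. With a replicate block, 625 genes were higher and 507 lower, and GCLC and AKR1C1 were not called (limma's adjusted p = 0.0784 and 0.0776). AKR1C1 also missed the threshold with no filter (limma's adjusted p = 0.0747) and with a mean of at least 5 FPKM (0.0518).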

Other observations

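Enzymes that make reactive oxygen species were read from a list of 11 genes, of which 6 were tested, with 1 higher and 1 lower in OGD-R, beside 10.2% and 9.69% of all tested genes. DUOX1, the dual oxidase that releases hydrogen peroxide at the surface of epithelia, was at 15.6, 14.5, 14.7 and 13.3 in Controls 1 to 4 and at 24.6, 24.4, 25.5 and 22.5 FPKM in OGD-R. It rose, with a log2 fold change of 0.70 ± 0.08 (SE; limma's adjusted p = 0.00116). XDH, xanthine dehydrogenase, whose oxidase form makes superoxide and hydrogen peroxide, was at 8.34, 9.32, 7.31 and 6.12 in Controls and at 3.15 to 3.36 FPKM in OGD-R. XDH fell by 1.03 on the log2 scale (limma's adjusted p = 0.00109). Against Controls 1 and 2 alone and Controls 3 and 4 alone, the values were 0.65 and 0.75 for DUOX1 and -1.20 and -0.85 for XDH.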
